A study of Homo sapiens with 12 samples.

Results

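Fatty acid and triglyceride metabolism was followed through 38 human genes that make, desaturate, elongate, activate, store, release or oxidise fatty acids, out of 58735 genes counted. The genes were listed by function and matched by symbol to Ensembl identifiers in GENCODE 29, and all 38 were found. Their levels were compared between 6 libraries of THP-1 macrophages that received a miR-122-5p mimic and 6 libraries of THP-1 macrophages that received a control miRNA mimic. THP-1 is a human monocytic leukaemia line that can be turned into macrophage-like cells, so both groups are cultures of a single line. All cells received 30 nM of mimic with RNAimax and, after 24 h and a rest, LPS (lipopolysaccharide, a bacterial endotoxin that activates macrophages through TLR4) for 4 h. There was no library without LPS or without a mimic, so the effects of LPS and of transfection itself were not measured. The labels give immunoregulation by exosomal miR-122-5p as the reason for the experiment, and do not say whether the 6 libraries of a group came from separate cultures. The p-values therefore reflect only how much these libraries vary, and that variation may be technical.

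Fatty acid synthesis begins in the cytosol, where ACLY makes acetyl-CoA from citrate, ACACA carboxylates it to malonyl-CoA and FASN joins malonyl-CoA units into palmitate. Acyl-CoA synthetases activate the product, and elongases and desaturases modify it. The glycerol phosphate pathway joins it into triglyceride that is stored in lipid droplets and released again by lipases. Mitochondria oxidise the released acids after transport by CPT1A and CPT2. In macrophages these steps feed membranes, lipid droplets and lipid mediators during inflammatory activation. miR-122-5p is the most abundant microRNA of hepatocytes, and blocking it in mouse liver is known to lower fatty acid and cholesterol synthesis.

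The mimic carries the sequence of the mature microRNA, shown because its seed (bases 2 to 8, in capitals) defines the sites searched in the 38 genes. RefSeq places the human miR-122-5p at chr18:58451088-58451109 on the plus strand (GRCh38.p14).
miR-122-5p: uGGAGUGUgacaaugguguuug
Matches to the seed were searched in the longest annotated 3′ UTR of a protein-coding transcript of each gene, on the transcript strand: ACACTCCA (8mer), ACACTCC (7mer-m8), CACTCCA (7mer-A1) and CACTCC (6mer), each gene being placed in its strongest class. Of the 37 genes that passed the low-count filter, 0 held an 8mer, 1 a 7mer-m8 (DGAT1), 11 a 7mer-A1, 6 only a 6mer and 19 none. An 8mer or 7mer was thus present in 12 of 37 (32.4%), against 23.9% of the 12871 protein-coding genes tested. Of the 14 such matches in these genes 5 lay in a stretch resembling Alu repeats, and LPIN1, PLIN3 and CPT1A had no other match of that length. The windows below show, in capitals, 1 7mer-A1 match each in genes that were lower with miR-122-5p (ACSL5 and ABHD5) and in genes that were higher (FASN, FADS1, MGLL and AGPAT4).
ACSL5, chr10:112427822-112427849, plus strand: tgttttctagcCACTCCAcaaaccacta
ABHD5, chr3:43721979-43722006, plus strand: agggaaacaggCACTCCAaaaattacaa
FASN, chr17:82079098-82079125, minus strand: ccaccggaggtCACTCCAccatccccac
FADS1, chr11:61800135-61800162, minus strand: attggcttcctCACTCCAaaataggtgc
MGLL, chr3:127689762-127689789, minus strand: tcacgcacggcCACTCCAgagccggtcc
AGPAT4, chr6:161132092-161132119, minus strand: caatccctctgCACTCCAaaaccggagc
Coordinates are those of GENCODE 29 on GRCh38. Of the 12 genes with an 8mer or 7mer, 5 were higher and 4 lower (median log2 fold change 0.10), against 681 higher and 966 lower of 3079 among all protein-coding genes tested (median -0.04). Among the 19 genes with no match, 8 were higher and 7 lower, against 2205 higher and 2317 lower of 8121 protein-coding genes tested with none. Genes with a match therefore lay on both sides, as did genes without, and this was not tested.

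Library totals were 29473750 to 35684464 counts with miR-122-5p, against 31019890 to 39468157 with the control mimic. Macrophage genes were present: the summed level of 13 markers was 6760 to 7804 CPM (counts per 1e6 counts of a library, scaled by TMM factors) with miR-122-5p and 5532 to 6635 CPM with the control mimic, led by the integrin ITGB2 and the adaptor TYROBP. Of the 11 markers tested 3 rose and 5 fell, with the scavenger receptor MSR1 lowest at 21.2 ± 4.29 against 103.5 ± 7.69 CPM (SD, n = 6 each; log2 fold change -2.29 ± 0.11). CD68 was near 0 in both groups, but 85.8% of its exon length overlaps other annotated genes, and MRC1 was also near 0. Adipocyte markers, which share lipid storage with these genes, summed to 0.874 to 1.38 CPM against 0.723 to 1.68 CPM, and 4 of 8 had no count in any library. Of hepatocyte markers 7 of 9 were under 1 CPM, and APOB and FGB had no count in any library. The sum of this list, 90.1 to 115.3 CPM against 81.0 to 106.5 CPM, came mostly from SERPINA1, which macrophages also express. APOA1 was the sole hepatocyte marker called, at 12.3 ± 1.04 against 7.15 ± 0.753 CPM (SD, n = 6 each; log2 fold change 0.78 ± 0.10, 0.35 after correction for GC content and length, called in both), and its part in the results was not tested. Lymphocyte markers summed to 11.3 to 13.6 CPM against 9.97 to 13.7 CPM (3 of 8 with no count), and fibroblast and epithelial markers to 3.43 to 4.92 CPM against 2.19 to 4.62 CPM (1 of 9 with no count). The libraries also differed in how their levels followed transcript GC content. The slope of log2 CPM on GC content, relative to the mean of all libraries, was 0.03 to 0.23 per 10 percentage points with miR-122-5p, against -0.32 to 0.01 with the control mimic, without overlap, so the GC trend and the mimic cannot be told apart. Fold changes below are on the log2 scale with their SE. For many genes a second value is given, after the GC and length correction. This correction removed smooth trends of log2 level with transcript length and GC content, library by library. Fold changes given alone are uncorrected.

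Of the 38 genes, 37 passed the low-count filter. ELOVL6, an elongase of saturated fatty acids, did not, with 0 to 11 counts with miR-122-5p, against 0 to 8 with the control mimic. Of the 37, 16 rose and 13 fell with miR-122-5p at an adjusted p under 0.05 (edgeR's quasi-likelihood test, Benjamini-Hochberg adjustment over 15471 genes), and 8 were not called. That is 78.4%, beside 50.5% of all genes tested, of which 24.3% rose and 26.2% fell. Among genes averaging at least 10 CPM the shares were 29 of 34 (85.3%) and 66.0%. The median log2 fold change was 0.24, against 0.01 for all genes tested. Most changes were of moderate size: the median absolute log2 fold change was 0.42, against 0.36 for all genes tested, and DGAT2 alone among these genes passed a 2-fold change, beside 9.34% of all genes tested. The 6 values of each group did not overlap for 18 genes, 12 of them higher and 6 lower, beside 29.5% of all genes tested. The steps of the pathway moved in different directions. Among the 38 genes, all 4 desaturases rose and all 4 acyl-CoA synthetases fell. Elongation, triglyceride synthesis, lipolysis and oxidation held both rises and falls. Synthesis and the droplet surface each had 2 genes that rose and none that fell, and no lipid chaperone was called. These are levels of RNA in bulk cultures, in which a lower level per cell and fewer expressing cells cannot be told apart.

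**Figure D1:**
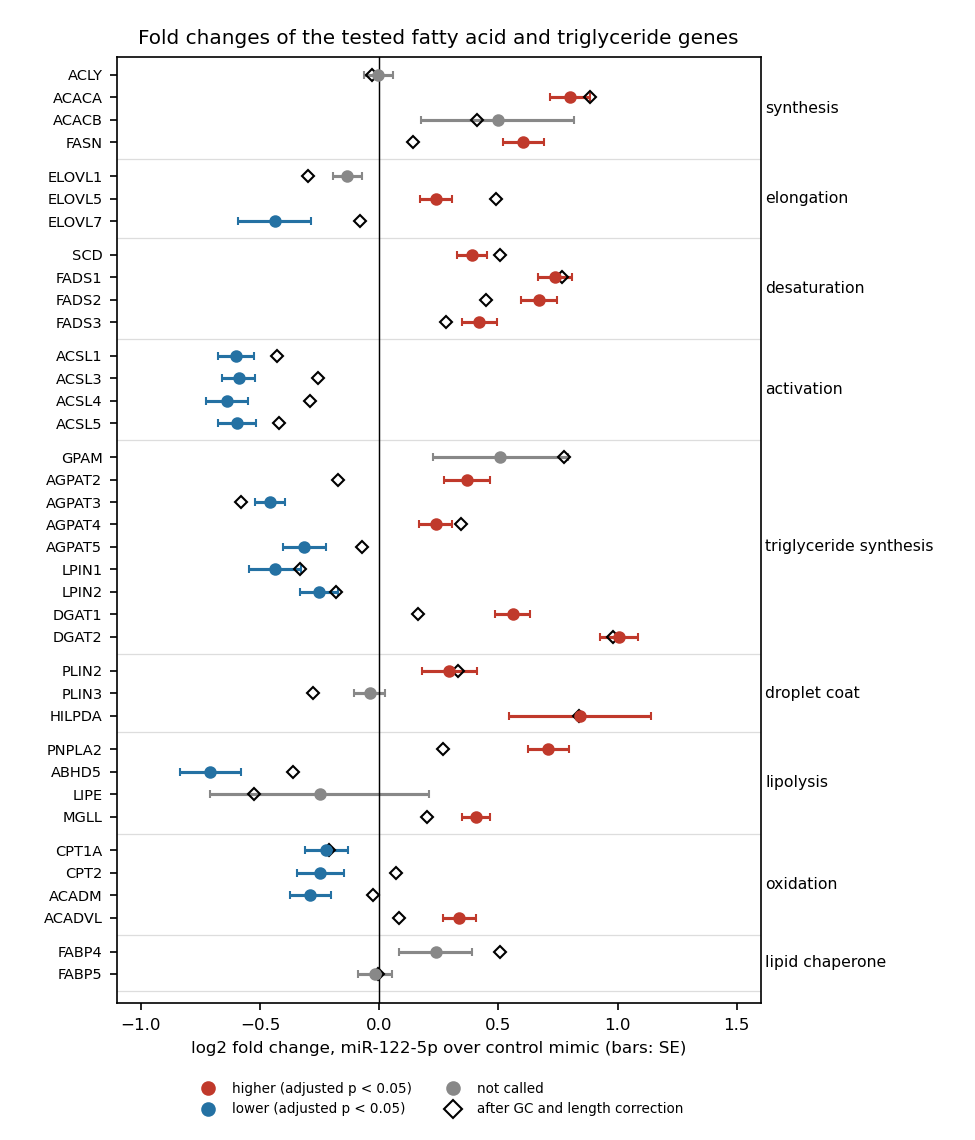
Log2 fold change (miR-122-5p over control mimic, circles with SE) of the 37 tested genes, ordered by role; red and blue circles passed the 0.05 threshold, and open diamonds show the corrected value. The 4 desaturation genes lie to the right of 0 and the 4 activation genes to the left, by both measures.

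Of the 4 synthesis genes ACACA and FASN rose, and ACLY and ACACB were not called. ACACA, the acetyl-CoA carboxylase that commits carbon to fatty acid synthesis, had 21.6 to 23.7 CPM (median 23.3) in miR-122-5p libraries, against 11.2 to 14.4 CPM (median 13.6) in control libraries. Every miR-122-5p library was above every control library, and ACACA rose by 0.80 ± 0.08 on the log2 scale (SE; adjusted p = 7.16e-08). FASN, the fatty acid synthase, had 221 to 288 CPM (median 253) with miR-122-5p and 133 to 183 CPM (median 171) with the control mimic, again without overlap. Its log2 fold change was 0.61 ± 0.09 (adjusted p = 5.59e-06), but FASN has a GC content of 65.3%, and genes of that GC content had a median of 0.49. After the GC and length correction FASN was at 0.14 and was no longer called. ACLY, which supplies cytosolic acetyl-CoA, had 130.4 to 146 CPM (median 137) with miR-122-5p and 131 to 147 CPM (median 138) with the control mimic, with nearly the same range in both (log2 fold change -0.0032 ± 0.06, adjusted p = 0.970). ACACB, the carboxylase at the mitochondrial surface whose product restrains CPT1A, was scarce, with 0.592 to 1.48 CPM (median 0.957) against 0.426 to 1.12 CPM (median 0.653) (0.50 ± 0.32, adjusted p = 0.208). ACACA lies on chromosome 17 (37084988 to 37406818), as do FASN (82078333 to 82098332) and ACLY (41866908 to 41930542), all as protein-coding genes in GRCh38.

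All 4 desaturases of the 38 genes rose, each with groups that did not overlap. FADS1 and FADS2, which introduce the double bonds of polyunsaturated fatty acids such as arachidonic acid, rose most. FADS1 had 71.4 to 79.4 CPM (median 75.8) with miR-122-5p and 42.2 to 52.0 CPM (median 42.6) with the control mimic, and rose by 0.74 ± 0.07 (adjusted p = 3.49e-08). FADS2 had 111 to 134 CPM (median 122.2) against 61.1 to 84.6 CPM (median 78.1), and rose by 0.67 ± 0.08 (adjusted p = 2.48e-07). SCD, which makes oleate from stearate, was the most abundant of the 38 genes, with 2846 to 3261 CPM (median 3063) in miR-122-5p libraries, against 2139.9 to 2613 CPM (median 2274) in control libraries. Its log2 fold change was smaller, 0.39 ± 0.06 (adjusted p = 3.14e-05). FADS3, a desaturase that acts on sphingoid bases, rose by 0.42 ± 0.07. After the GC and length correction FADS1, SCD, FADS2 and FADS3 were at 0.77, 0.51, 0.45 and 0.28, all still called higher. FADS1 (61799625 to 61829318), FADS2 (61792980 to 61867354) and FADS3 (61873519 to 61892051) are neighbours on chromosome 11. FADS1 and FADS2 overlap on opposite strands over 5.57% and 4.89% of their exon lengths (other overlapping genes included), so a small share of their reads may be assigned to the wrong gene. SCD is on chromosome 10 (100347124 to 100364834).

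The elongases did not move together. ELOVL5, which lengthens polyunsaturated fatty acids, had 291 to 319.8 CPM (median 309.8) with miR-122-5p and 235 to 288 CPM (median 264) with the control mimic, without overlap, and rose by 0.24 ± 0.07 (adjusted p = 0.00449). The correction doubled this rise to 0.49. ELOVL7, which lengthens long and very long chains, had 19.97 to 36.6 CPM (median 24.9) against 26.6 to 48.1 CPM (median 36.6), and the groups overlapped. It fell by 0.44 ± 0.15 (adjusted p = 0.0204), a call that ended after the correction (-0.08), with DESeq2 and without any of miR-122-5p libraries 1, 2 and 3 or control library 1 (-0.38 to -0.34). ELOVL1, another very long chain elongase, had 123 to 137 CPM (median 130.0) against 134 to 155 CPM (median 141) and was not called (-0.13 ± 0.06, adjusted p = 0.0754), while after the correction it was called lower (-0.30).

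**Figure D2:**
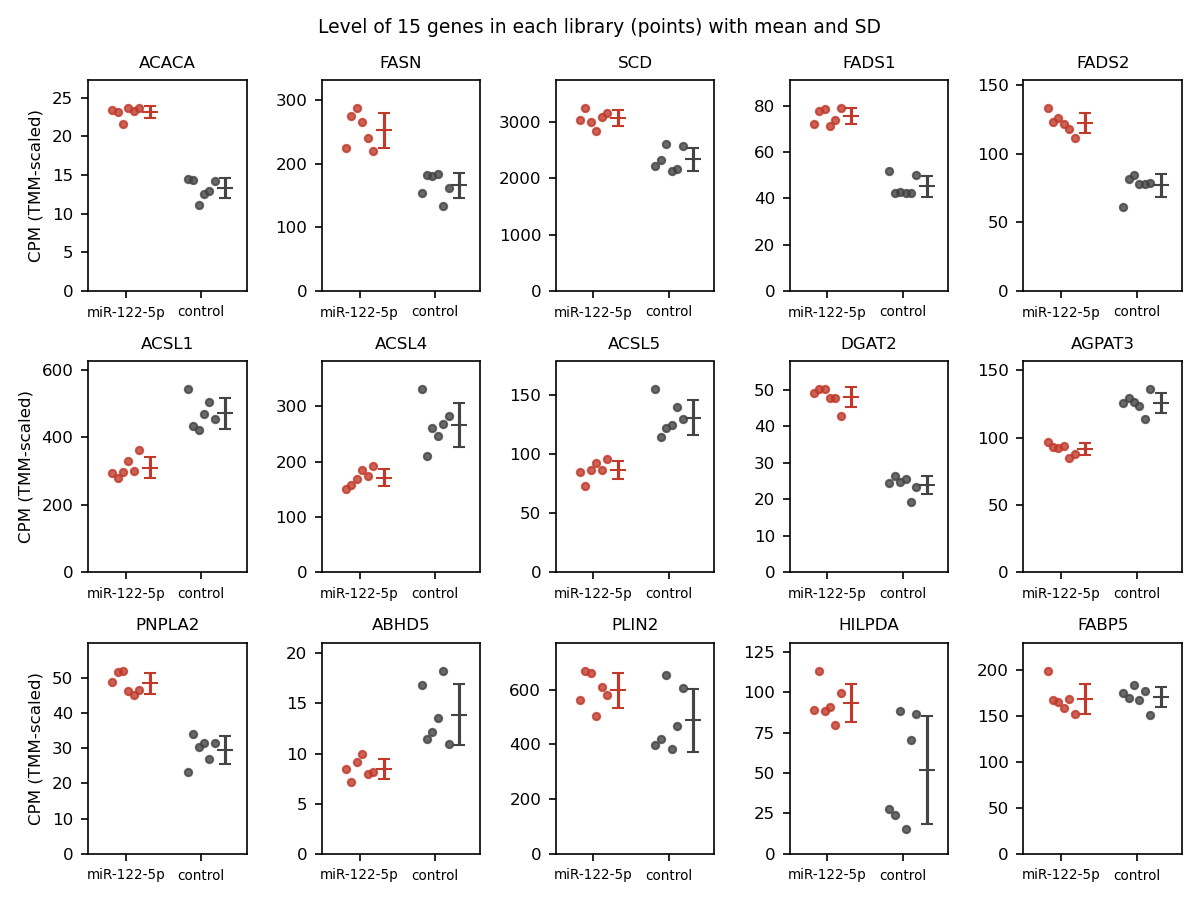
TMM-scaled CPM of 15 genes in each of the 6 miR-122-5p libraries (red, left) and 6 control mimic libraries (grey, right), with the mean and SD beside the points; each vertical axis starts at 0. Groups are apart for ACACA, FASN, SCD, FADS1, FADS2, DGAT2, PNPLA2, AGPAT3, ABHD5 and the ACSL genes, and overlap for PLIN2, HILPDA and FABP5.

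All 4 long-chain acyl-CoA synthetases of the 38 genes fell, with log2 fold changes of -0.64 to -0.59. These enzymes join free fatty acids to coenzyme A, which is needed before they can be esterified or oxidised. ACSL1, known in mouse macrophages as a gene induced by LPS, had 279 to 362 CPM (median 297) with miR-122-5p and 421 to 542 CPM (median 460.5) with the control mimic. Its log2 fold change was -0.60 ± 0.08 (adjusted p = 1.20e-06). ACSL3, which is found on nascent lipid droplets, had 97.1 to 114 CPM (median 108) against 148 to 184 CPM (median 157) (-0.59 ± 0.07, adjusted p = 5.40e-07). ACSL5 had 73.4 to 96.1 CPM (median 86.6) against 114 to 155 CPM (median 127) (-0.60 ± 0.08, adjusted p = 2.34e-06). ACSL4, which prefers arachidonic acid, changed by -0.64 ± 0.09 (adjusted p = 3.66e-06), with 151 to 191 CPM (median 171) against 211 to 331 CPM (median 265). For each of the 4 genes the highest miR-122-5p library lay below the lowest control library. Summed over the 4 genes, the level was 618 to 763 CPM with miR-122-5p and 907 to 1213 CPM with the control mimic. The 4 transcripts have GC contents of 37.4 to 45.1%, where the median log2 fold change of other genes was also below 0 (-0.30 at the GC content of ACSL4 and -0.16 at that of ACSL1). After the GC and length correction ACSL1, ACSL5, ACSL4 and ACSL3 were at -0.43, -0.42, -0.29 and -0.26, all still called lower. With the GC slope as a covariate, ACSL3 alone of the 4 was still called. The genes lie on chromosomes 4 (ACSL1, 184755595 to 184826818), 2 (ACSL3, 222860934 to 222944639), X (ACSL4, 109624244 to 109733403) and 10 (ACSL5, 112374018 to 112428380).

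Among the 9 genes of triglyceride synthesis 4 rose, 4 fell and 1 was not called. The acyltransferases that add the last acyl chain rose. DGAT2 had 42.9 to 50.2 CPM (median 48.4) with miR-122-5p and 19.2 to 26.3 CPM (median 24.5) with the control mimic, about a doubling without overlap, and its log2 fold change of 1.01 ± 0.08 was the largest of the 37 (adjusted p = 1.47e-09; 0.98 after the correction). DGAT1, the other enzyme of this step, had 132 to 168 CPM (median 147) against 88.0 to 113 CPM (median 102), also without overlap, and rose by 0.56 ± 0.07 (adjusted p = 2.15e-06). Its GC content is 63.2%, and the correction reduced its rise to 0.16. The earlier acyltransferases, which make phosphatidic acid, differed among themselves. AGPAT3 fell, with 85.1 to 96.6 CPM (median 92.8) against 114 to 136 CPM (median 126) and no overlap (-0.46 ± 0.06, adjusted p = 3.13e-06), and its GC content of 55.3% is one at which other genes had a median of 0.16. AGPAT2 rose by 0.37 ± 0.10 and AGPAT5 fell by 0.31 ± 0.09. Both calls ended after the correction, at -0.17 and -0.07, so AGPAT2 changed its sign. AGPAT4 rose by 0.24 ± 0.07. The phosphatidate phosphatases LPIN1 and LPIN2, which produce diacylglycerol, fell by 0.44 ± 0.11 and 0.25 ± 0.08, and the call of LPIN2 ended without the low-count filter. GPAM, the mitochondrial enzyme of the first step, was at a mean of 0.908 ± 0.169 CPM with miR-122-5p and 0.638 ± 0.113 CPM with the control mimic (SD, n = 6 each) and was not called (0.51 ± 0.28), but was called higher after the correction (0.77). DGAT2 is on chromosome 11 (75759512 to 75801535), DGAT1 on chromosome 8 (144314584 to 144326910) and AGPAT3 on chromosome 21 (43865186 to 43986536). Other genes overlap 11.1% of the exon length of DGAT1.

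**Figure D3:**
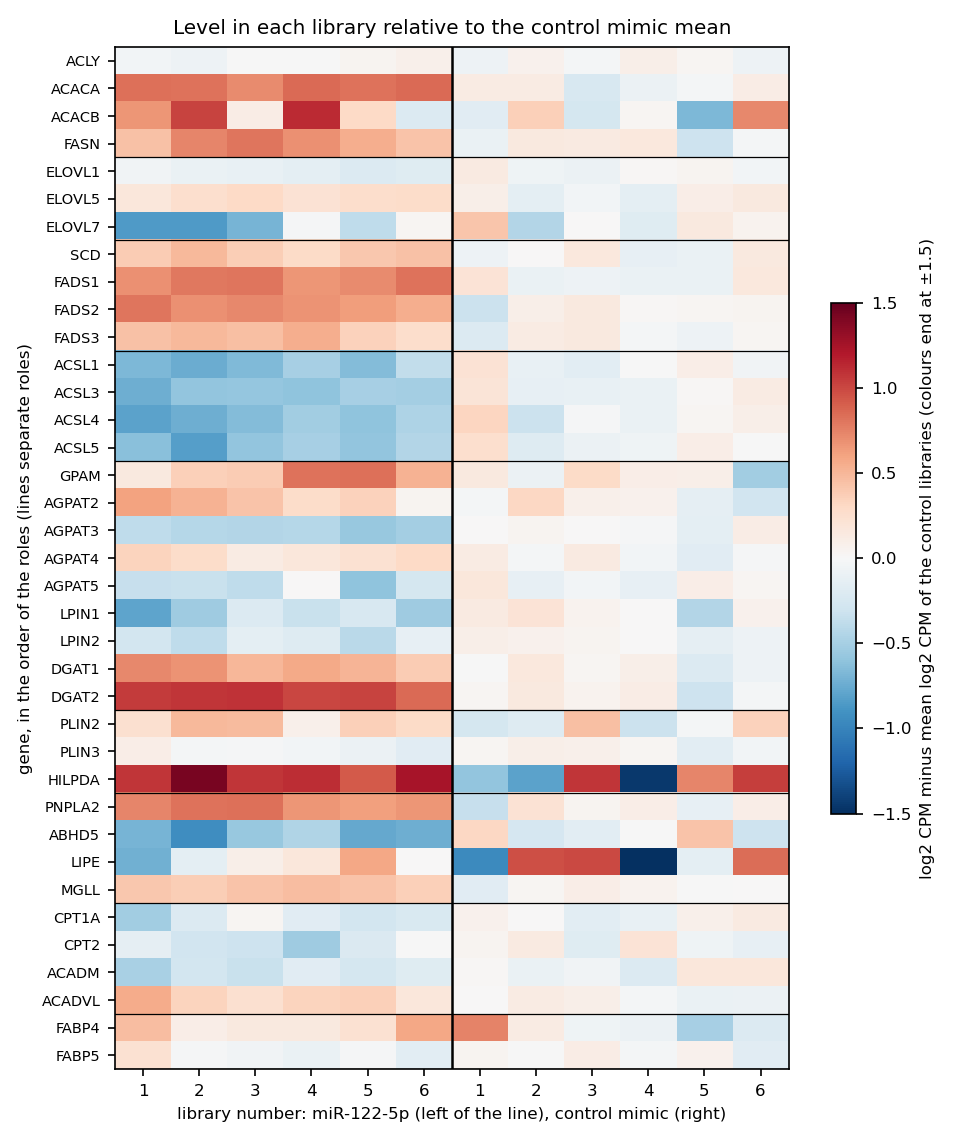
Level of each of the 37 tested genes in the 12 libraries, as log2 CPM minus the mean log2 CPM of the control libraries; miR-122-5p libraries are left of the vertical line, and horizontal lines separate roles. The rises of ACACA, FADS1, FADS2 and DGAT2 and the falls of the ACSL genes run through all 6 miR-122-5p libraries, whereas HILPDA ranges from 15.4 to 88.7 CPM among the control libraries.

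Of the 3 genes of the lipid droplet surface HILPDA and PLIN2 rose, with wide spreads among control libraries, and PLIN3 was not called. HILPDA, a small droplet protein that is induced by hypoxia and inhibits PNPLA2, had 79.6 to 113 CPM (median 89.8) with miR-122-5p and 15.4 to 88.7 CPM (median 49.0) with the control mimic. Control libraries 1 to 6 were at 27.9, 24.2, 88.7, 15.4, 70.2 and 86.6 CPM, so that the groups overlapped. It rose by 0.84 ± 0.30 (adjusted p = 0.0226), a call that ended with DESeq2 and with the GC slope covariate. PLIN2, the main droplet coat protein of macrophages, had 502 to 669 CPM (median 594) against 382 to 653 CPM (median 442), with its highest control values also in libraries 3 and 6 (653 and 607 CPM). Its rise of 0.29 ± 0.12 (adjusted p = 0.0389) was lost without any of miR-122-5p libraries 2, 3 and 5 or controls 1, 2, 4 and 5 (0.24 to 0.30). PLIN3, a coat protein of small droplets, had 169.9 to 205 CPM (median 186) against 171 to 202 CPM (median 194) and was not called (-0.04 ± 0.06, adjusted p = 0.641), but was called lower after the correction (-0.28). Other annotated genes overlap 17.8% of the exon length of PLIN3 and 13.2% of that of HILPDA.

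In lipolysis the lipase rose and its activator fell. PNPLA2 (adipose triglyceride lipase), which removes the first acyl chain of stored triglyceride, had 45.1 to 52.1 CPM (median 47.6) with miR-122-5p and 23.1 to 34.0 CPM (median 30.9) with the control mimic and rose by 0.71 ± 0.09 without overlap (adjusted p = 6.41e-07). ABHD5, the protein that activates PNPLA2, had 7.16 to 9.97 CPM (median 8.29) against 10.96 to 18.3 CPM (median 12.9) and changed by -0.71 ± 0.13, also without overlap (adjusted p = 9.29e-05). MGLL, the monoglyceride lipase of the last step, had 318 to 342 CPM (median 331) against 220.0 to 265 CPM (median 251) and rose by 0.41 ± 0.06 (adjusted p = 8.58e-06). The GC contents of PNPLA2 (64.5%), MGLL (58.0%) and ABHD5 (37.5%) lie where other genes had medians of the same sign (0.48, 0.25 and -0.30). The correction brought the 3 values to 0.27, 0.20 and -0.36, and all 3 stayed called, though the call of ABHD5 ended with the GC slope covariate. LIPE, the hormone-sensitive lipase, averaged 0.347 ± 0.098 CPM with miR-122-5p and 0.417 ± 0.254 CPM with the control mimic (SD, n = 6 each) and was not called (-0.25 ± 0.46). PNPLA2 lies on chromosome 11 (818902 to 825573) and shares 10.4% of its exon length with other genes. ABHD5 lies on chromosome 3 (43690108 to 43734371), as does MGLL (127689062 to 128052190).

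Of the 4 genes of mitochondrial oxidation 1 rose and 3 fell, none by more than 0.34 on the log2 scale. ACADVL, the very long chain acyl-CoA dehydrogenase, had 214 to 279.7 CPM (median 240.3) with miR-122-5p and 178 to 206 CPM (median 189) with the control mimic, without overlap, and rose by 0.34 ± 0.07 (adjusted p = 0.000405). ACADM, the medium chain dehydrogenase, had 16.6 to 20.6 CPM (median 19.2) against 20.2 to 26.1 CPM (median 22.9), with overlap, and fell by 0.29 ± 0.09 (adjusted p = 0.00845). CPT2, the inner membrane carnitine palmitoyltransferase, had 10.6 to 15.2 CPM (median 12.9) against 13.5 to 17.6 CPM (median 15.2) and fell by 0.25 ± 0.10 (adjusted p = 0.0439), and CPT1A, the rate-limiting transferase of the outer membrane, fell by 0.22 ± 0.09 (adjusted p = 0.0455). Corrected for GC content and length, ACADVL, ACADM and CPT2 were at 0.08, -0.03 and 0.07 and none was called, while CPT1A stayed at -0.21. With the GC slope as a covariate none of the 4 was called, and CPT1A was at -0.02. The calls of CPT1A and CPT2 also ended with scaling by library totals or RLE factors (-0.24 to -0.18), and without most single libraries. CPT1A stayed called without miR-122-5p library 3, control 3 or control 4 alone, and CPT2 without miR-122-5p library 1 or 6 or control 3, 5 or 6 alone. The other fits that left out 1 library gave -0.22 to -0.17 for CPT1A and -0.24 to -0.19 for CPT2. Other genes overlap 11.96% of the exon length of CPT2. The lipid chaperones, which carry fatty acids in the cytosol, were not called. FABP5 had 152 to 199 CPM (median 166) against 151 to 184 CPM (median 172) (-0.02 ± 0.07, adjusted p = 0.856). FABP4, a macrophage and adipocyte protein, had 14.7 to 20.6 CPM (median 15.6) against 9.70 to 22.9 CPM (median 13.0) (0.24 ± 0.15, adjusted p = 0.206). Control library 1 held the highest FABP4 value of all libraries, and without it FABP4 was called higher (0.43), as it was after the correction (0.50).

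Per kilobase of exon (all annotated exons of a gene merged), SCD stood far above the other genes in level. Its mean was 572 CPM per kb with miR-122-5p, against 437 with the control mimic. With miR-122-5p PLIN2 followed at 117 CPM per kb (95.8 with the control mimic), then FABP5 at 81.0 (82.1), ELOVL5 at 80.7 (68.4) and AGPAT2 at 75.6 (58.6). With the control mimic ACSL1 at 74.8 CPM per kb came before ELOVL5, and PLIN3 at 67.9 before AGPAT2. The lowest were GPAM (0.0925 and 0.0651), ACACB (0.0701 and 0.0493), LIPE (0.0666 and 0.0801) and ELOVL6 (0.0237 and 0.0177). The order depends on the length used. The merged exons of PLIN2 span 5086 bases and its longest transcript 1972, whereas for SCD both are 5362. Among the activating enzymes ACSL1 led with 49.3 CPM per kb against 74.8, before ACSL4 (26.7 and 41.5), ACSL5 (20.5 and 31.0) and ACSL3 (14.9 and 22.4), an order that was the same in both groups. DGAT1 stayed above DGAT2, at 36.3 and 6.07 CPM per kb with miR-122-5p, against 24.6 and 3.02 with the control mimic. The 38 genes together made up 7063 to 7599 CPM with miR-122-5p and 5983 to 6841 CPM with the control mimic. Most of this difference was SCD: without it the sums were 4190 to 4342 CPM and 3844 to 4228 CPM, and the groups overlapped.

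**Figure D4:**
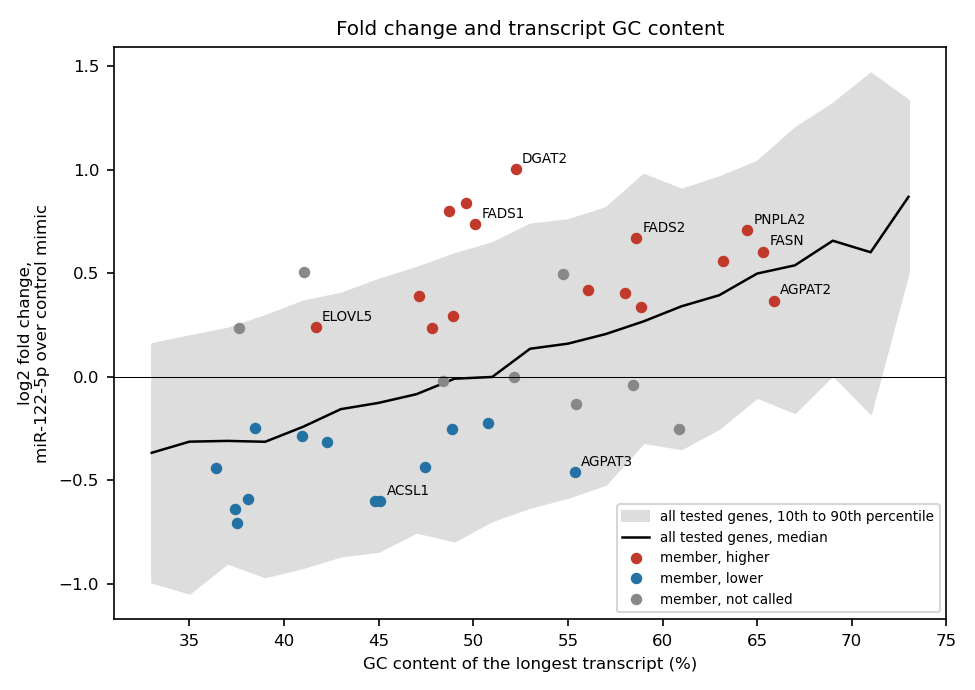
Log2 fold change (miR-122-5p over control mimic) against GC content of the longest transcript, for all tested genes (black line, median in bins of GC content; grey band, 10th to 90th percentile) and for the 37 tested genes of fatty acid and triglyceride metabolism (points, coloured by call). The median of all genes climbs from left to right. DGAT2, ACACA, FADS1, HILPDA and GPAM (which was not called) lie above the band and FASN near the median line.

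The trend with GC content ran through the whole table, with medians of -0.30 and 0.39 (log2 fold change) in the lowest and the highest of 5 equal groups of genes by GC content. The genes that rose here had a median GC content of 54.2% and those that fell 42.3%. After the GC and length correction 15 of the 37 were called higher and 11 lower, beside 46.8% of all genes tested. Of the 29 original calls 22 held in the same direction, as did 5480 of the 7810 calls among all genes tested (35.4% of the genes), and ELOVL1, PLIN3, GPAM and FABP4 were newly called. When the GC slope entered the model as a covariate, 8 were called higher (7.22% of all genes tested) and 2 lower (12.2%), beside 19.4% in all, and these 10 were also called in the same direction by the other 2 fits, as were 2480 of the 7810 calls among all genes (16.0% of the genes tested). They were ACACA, FADS1, FADS2, SCD, ELOVL5, DGAT2, PNPLA2 and MGLL, which rose, and ACSL3 and AGPAT3, which fell. These 10 were called in every setting tried, those leaving out single libraries included.

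The other genes of the pathway, 106 genes in 6 lists that exclude the 38, also moved in both directions. Of 87 tested, 35 rose, 15 fell and 37 were not called, which is 57.5% called, beside 50.5% of all genes tested. In lipolysis 5 of 8 rose and 2 fell. G0S2, a small protein that inhibits PNPLA2, rose most of all 87, with 1077 to 1536 CPM (median 1241) with miR-122-5p and 341 to 528 CPM (median 452) with the control mimic (1.51 ± 0.10, adjusted p = 7.23e-11). LIPA, the lysosomal acid lipase, fell by 0.57 ± 0.08, and PNPLA3, a droplet lipase and paralogue of PNPLA2, rose by 0.71 ± 0.10. In triglyceride synthesis and droplets 3 of 8 rose and 1 fell, with the droplet coat gene PLIN4 at 1.29 ± 0.16 (14.98 ± 3.42 against 6.13 ± 1.36 CPM, SD, n = 6 each), the acyltransferase AGPAT1 at 0.37 ± 0.08 and the phosphatase LPIN3 at 0.36 ± 0.10. Other genes overlap 30.2% of the exon length of AGPAT1 and 13.5% of that of LPIN3, and the LPIN3 call ended after the GC and length correction (0.14). G0S2, LIPA, PNPLA3, PLIN4 and AGPAT1 were then at 1.26, -0.35, 0.62, 0.95 and 0.27, all still called. With the GC slope as a covariate, G0S2 alone of these genes was still called. BSCL2 and CIDEB of this list were not tested, and other genes overlap 51.9% of the exon length of BSCL2 and the whole of CIDEB.

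In uptake and activation 7 of 10 tested genes rose and 2 fell. The fatty acid transport proteins differed: SLC27A4 rose by 0.93 ± 0.08 (43.4 ± 4.04 against 22.8 ± 2.08 CPM) and SLC27A3 changed by -0.93 ± 0.09 (137.5 ± 14.5 against 262.4 ± 35.8 CPM, SD, n = 6 each). SLC27A1 rose by 0.76 ± 0.12 and SLC27A2 was not called. DBI, the acyl-CoA binding protein, rose by 0.69 ± 0.10. After the GC and length correction SLC27A4, SLC27A3, SLC27A1 and DBI were at 0.62, -1.20, 0.50 and 0.93, all still called. With the GC slope as a covariate SLC27A1 and DBI were not called. In synthesis and elongation 6 of 17 rose and 3 fell, led by the dehydratase HACD4 (-1.14 ± 0.11), the mitochondrial transacylase MCAT (0.76 ± 0.11) and the enoyl reductase TECR (0.47 ± 0.08). The desaturases SCD5 (0.37 ± 0.24) and DEGS1 (-0.16 ± 0.07) of this list were not called. In oxidation 7 of 27 rose and 5 fell, with the isomerase ECI1 (0.86 ± 0.10), the dehydrogenase HADH (0.75 ± 0.09) and the electron carrier ETFB (0.66 ± 0.10) first among them. Corrected for GC content and length, HACD4, MCAT, TECR, ECI1, HADH and ETFB were at -0.77, 0.46, 0.53, 0.49, 0.93 and 0.73, all still called. With the GC slope as a covariate TECR was not called (0.12), and the others were. Of 17 regulators 7 rose and 2 fell. They included PPARG, a nuclear receptor that drives lipid storage (0.66 ± 0.08), MLXIPL, a carbohydrate-responsive activator of lipogenic genes (1.05 ± 0.14), and RXRA, the partner of PPARG (0.51 ± 0.08). The 2 that fell were NR1H3, a liver X receptor that senses oxysterols (-0.27 ± 0.07, -0.40 after the correction), and PRKAA1, a catalytic subunit of AMP-activated kinase (-0.63 ± 0.11, -0.25 after the correction). SREBF1 and SREBF2, the activators of fatty acid and cholesterol synthesis genes, rose by 0.24 ± 0.09 and 0.28 ± 0.06. After the GC and length correction MLXIPL and RXRA were at 0.67 and 0.22 and still called, whereas SREBF1 and SREBF2 were at -0.13 and 0.11 and not called, and PPARG was at 0.84. With the GC slope as a covariate PPARG and NR1H3 were still called, but MLXIPL, RXRA, PRKAA1, SREBF1 and SREBF2 were not.

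**Figure D5:**
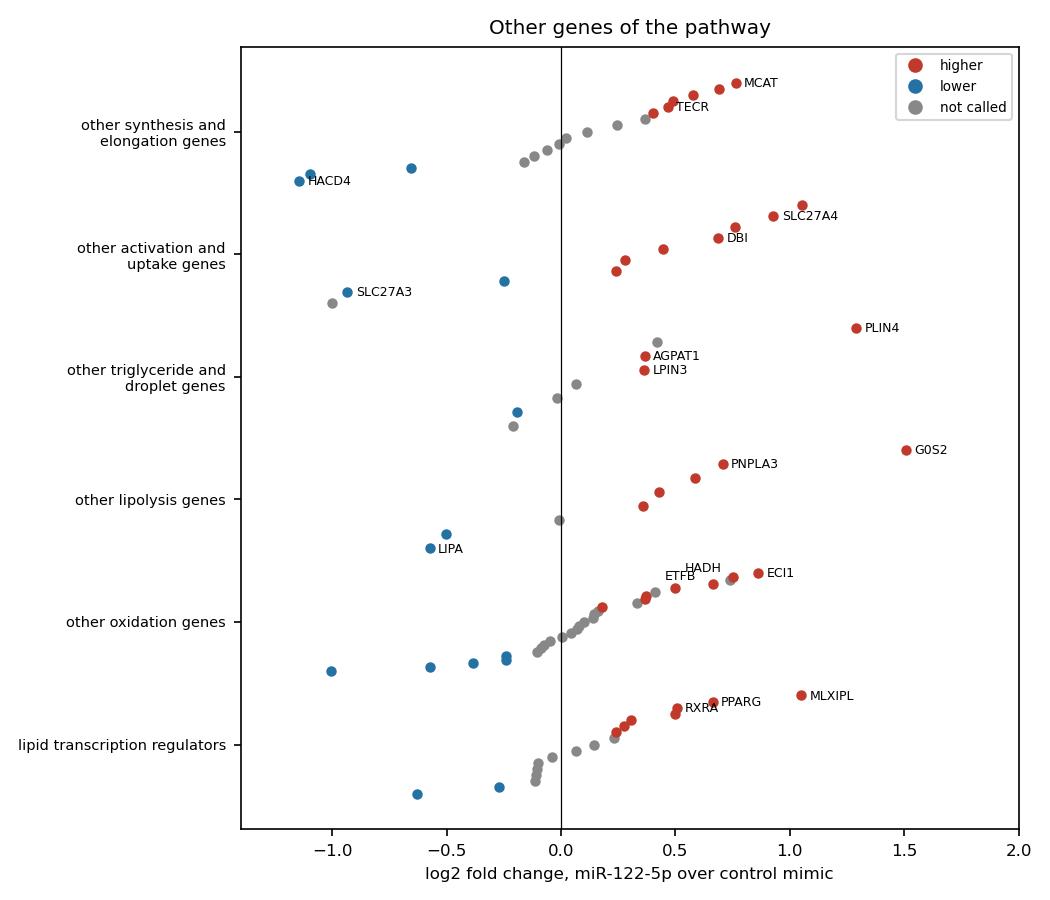
Log2 fold change (miR-122-5p over control mimic) of 87 tested genes of the pathway outside the 38, in 6 lists; points are coloured by call and spread vertically within a list, and the 3 called genes of smallest p in each list are named. G0S2 lies farthest to the right, and HACD4 and SLC27A3 lie to the left.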

How the data were processed

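Total RNA was sequenced from 12 libraries of LPS-stimulated THP-1 macrophages, and the authors deposited 1 table of unnormalized read counts per gene. HISAT2 2.0.5 and featureCounts 1.5.0-p3 are the tools, and hg38 the build, in the submitters' processing notes; annotation, strand setting and treatment of multiply mapped reads were not given in the sources used here. Without strand, reads of overlapping antisense genes cannot be told apart, so the exon overlap is given for named genes of the 38 where it is over 10%. Column names were matched to sample titles, and those named nc were taken as the control mimic. All 58735 identifiers were found in GENCODE 29, the source of symbols, coordinates, exon lengths, 3′ UTRs and the GC content and length of each gene's longest transcript. The mature microRNA sequence is from RefSeq (GRCh38.p14).

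The low-count filter was edgeR's filterByExpr, which kept 15471 genes, and scaling was by TMM. The quasi-likelihood test of edgeR 4.0.16 (R 4.3.3) set miR-122-5p against the control mimic, with p-values adjusted after Benjamini and Hochberg across the 15471 genes and called under 0.05. Standard errors were derived from the fold change and its F statistic. The test was run on counts simulated from the control means, with no GC trend between the groups. It recovered 83 of 100 planted log2 changes of 1 and 90 of 100 of 2, with 10 false calls. The simulation therefore cannot speak to calls that follow the GC trend. No pair of libraries within a group agreed within sampling noise (chi-square over its degrees of freedom, 7.38 to 65.5). Alternatives were DESeq2 1.42.0, limma-voom (limma 3.58.1), other scalings and filters, a replicate block, each library left out, an adjusted p under 0.01, offsets from natural splines (4 degrees of freedom each) of GC content and transcript length, and the GC slope of a library entered as a covariate. For the GC-matched medians the 500 tested genes nearest in GC content were used.

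The 38 genes, the further lists, the roles and the alternatives were chosen with earlier results of these data known. Full values are given for up to 3 genes of smallest p in each role and for called genes with at least a 2-fold change; from each further list the 3 called genes of smallest p are named. ACSL4, SREBF1, SREBF2, NR1H3, PRKAA1, APOA1 and other genes named beyond this were chosen after their values were seen.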

Additional observations from a re-analysis of the deposited data

Results flagged for a closer look

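The 37 tested genes gave 74 groups of 6 values, of which 5 held a library standing apart from the other 5 by Dixon's criterion; chance alone flags about 1 in 20 groups. ACACA was at 21.6 CPM in miR-122-5p library 3, below the next value of 23.2 CPM. FADS2 was at 61.1 CPM in control library 1, below the next value of 77.6 CPM. LPIN1 was at 17.8 CPM in control library 5, against 24.1 CPM for the next. DGAT2 was at 42.9 CPM in miR-122-5p library 6, against 47.7 CPM for the next, and still above every control library. FABP5 was at 199.2 CPM in miR-122-5p library 1, above the next value of 168.4 CPM. The calls of ACACA, FADS2, LPIN1 and DGAT2 held in each fit that left out 1 library, and FABP5 was called in none of them.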

How the results depend on the processing

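The table was recomputed under 23 alternatives, and the GC slope covariate changed the counts most. With it 3004 of all genes were called against 7810, 8 of the 37 genes were higher and 2 lower against 16 and 13, and 21 other pathway genes were called against 50. The GC slope did not overlap between the groups, so this fit has less power to detect an effect of the mimic. A call can end there without a smaller fold change: HILPDA was at 1.23 and not called, against 0.84 in the main fit. The same held for LPIN1 (-0.49 against -0.44), CPT2 (-0.28 against -0.25) and AGPAT4 (0.24 in both). All other calls among the 37 that ended there had smaller absolute fold changes. Among them were ACSL4 (-0.15 against -0.64), ACSL1 (-0.27 against -0.60) and FASN (0.31 against 0.61). Leaving out each library in turn gave 7235 to 7879 calls among all genes, 15 to 16 higher and 10 to 13 lower among the 37, and 48 to 53 among the other pathway genes. In those fits 25 of the 29 calls held, CPT1A, CPT2, ELOVL7 and PLIN2 being the exceptions. Leaving out control libraries 1 and 6 together, chosen after seeing the data, gave 17 higher and 11 lower. With the replicate number as a block 7587 genes were called, with 16 higher and 11 lower of the 37 and 49 other pathway genes, and the calls of CPT1A and CPT2 ended. The numbers do not pair the libraries, since deviations of same-numbered libraries correlated at -0.10 to 0.07. Log2 fold changes turned sign for AGPAT2 (-0.17 with the GC and length correction, -0.0916 with the GC slope), CPT2 (0.0686 with the correction) and ELOVL7 (0.37 with the GC slope). Some genes near 0 and not called at the settings of the report also turned. ACLY was at 0.0061 with DESeq2, 0.0060 with RLE factors, 0.0398 with library totals, 0.0168 with no filter, 0.0069 with the 1 CPM filter and -0.015 to 0.022 without single libraries. FABP5 was at 0.02 with library totals, 0.0025 with no filter and -0.069 to 0.018 without single libraries, PLIN3 at 0.0019 with library totals and LIPE at 0.0317 with limma-voom. The cause of these changes was not tested. The summed level differed by 957 CPM between the groups, and by 231 CPM without SCD. LIPE, ACACB, GPAM and ELOVL6 were all near or under 1 CPM, and ELOVL6 was not tested. The SE of the log2 fold change was 0.46 for LIPE, 0.32 for ACACB and 0.28 for GPAM, so small differences were hardly detectable at this depth.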

Other observations

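HILPDA varied more among the control libraries than any other of these genes averaging over 1 CPM, so 10 genes known to be induced by hypoxia, chosen after this was seen, were read in the same libraries. ADM, a peptide hormone, lay between 66.8 and 88.4 CPM in miR-122-5p libraries, and was at 50.8, 31.3, 99.1, 30.4, 69.0 and 86.0 CPM in control libraries 1 to 6, which puts these 6 libraries in the same order as HILPDA does. ADM was not called (log2 fold change 0.25 ± 0.21, adjusted p = 0.346). None of the other genes read gave that order. VEGFA and SLC2A1, for example, were lowest in control library 1 (206 and 377 CPM), where HILPDA was not. A link between HILPDA and hypoxia was not tested. VEGFA, the vascular growth factor, rose by 0.68 ± 0.10, ANKRD37 by 0.60 ± 0.14 and NDRG1 by 0.31 ± 0.10, while the prolyl hydroxylases EGLN3 and P4HA1 changed by -0.70 ± 0.09 and -0.36 ± 0.07. BNIP3, PDK1 and the glucose transporter SLC2A1 were not called, and CA9 was near 0 in both groups.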
